A study of Mus musculus with 30 samples.

Results

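Adult mice and juvenile mice inhaled the same aerosol of lipopolysaccharide (LPS), and the transcript levels that their lungs reached were set side by side. The members are 8 of the 30 arrays of the series, 4 of adult LPS lungs and 4 of juvenile LPS lungs, taken by the age and treatment in their labels. Each array holds RNA of the whole lung of 1 animal on the Affymetrix mouse 430 2.0 array. Adults were 16 weeks old and juveniles 21 days old, and all were of the inbred strain C57BL/6. The LPS came from Escherichia coli (20 mL at 0.1 mg/mL) and was given for 30 min in a sealed chamber, after which the animals breathed spontaneously for 2 h. No control array enters this contrast, so a difference in it may have been present before LPS. The same age contrast was therefore computed on arrays it does not use. These were untreated spontaneously breathing controls (4 adult and 4 juvenile) and animals mechanically ventilated for 2 h after LPS (LPS+MV, 4 adult and 3 juvenile). The tidal volume of the ventilated animals was 15 mL/kg at both ages. The controls were not placed in the aerosol chamber, a single time after LPS was sampled, and the labels do not give sex.

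LPS is a lipid of the outer membrane of Gram-negative bacteria. Tlr4, with Cd14 and Ly96, binds it on macrophages and epithelium, and signals through Myd88 and NF-kB to cytokines and chemokines, and through Ticam1 to interferon-beta and the genes that interferon induces. Neutrophils then move from the blood into the lung. In the mouse most alveoli form after birth, under deposition of elastin and collagen that slows once alveoli are complete, while the lymphocytes of the lung accumulate after weaning.

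Intensities are the submitters' values on a linear scale, and whether array background was removed is not given in the sources used here. The medians of the 8 LPS arrays lay between 21.7 and 22.8. A difference is adult minus juvenile on the log2(intensity + 32) scale, given with its standard error (SE), and it understates the change of dim genes. A gene passed when its adjusted p in limma was below 0.05. Epithelial markers checked the labelled tissue: Sftpc, the surfactant protein of alveolar type 2 cells, averaged 20092 in adult LPS and 20130 in juvenile LPS lungs, and the club cell gene Scgb1a1 averaged 20929 in adult LPS and 18845 in juvenile LPS lungs. Sex-linked transcripts were alike on the 8 arrays, with Xist between 18.4 and 27 and the Y-linked gene Eif2s3y between 174 and 233. The other adult and juvenile controls had similar levels, but juvenile control replicate 3 had 589 for Xist and 9.69 for Eif2s3y, and its part in the control and interaction values was not tested beyond leaving it out. Cardiac muscle genes (12 tested) had a summed intensity of 8348 to 10704 in adult LPS and of 7048 to 21144 in juvenile LPS lungs, highest on juvenile LPS replicates 3 and 4, and 0 of them passed. The part of attached heart tissue in other differences was not tested. In whole lung, fewer cells of a type and less RNA per cell cannot be told apart.

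After LPS, 2141 of 13089 genes differed between the ages (16.4%), 1158 higher in adults (8.85%) and 983 lower (7.51%), and 3712 genes had an unadjusted p below 0.05. The difference reached 2-fold for 120 of them, 77 higher and 43 lower. Intensities of adult LPS and juvenile LPS arrays did not overlap for 1821 of the genes that passed and for 21.4% of all genes. Between the controls 3301 genes passed (25.2%), 1982 higher in adults (15.1%) and 1319 lower (10.1%), and groups did not overlap for 22.1% of all genes. Of the 2141 genes, 1131 also passed between the controls with the same sign and 53 with the opposite sign. The age difference after LPS itself differed from that in controls, by the interaction of age and LPS, for 483 genes (3.69%), with 172 more positive after LPS (1.31%) and 311 more negative (2.38%). Of the 120 genes with 2-fold differences, 85 had passed between the controls with the same sign and 30 passed the interaction. The interaction shares its LPS arrays with the contrast described here.

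**Figure D1:**
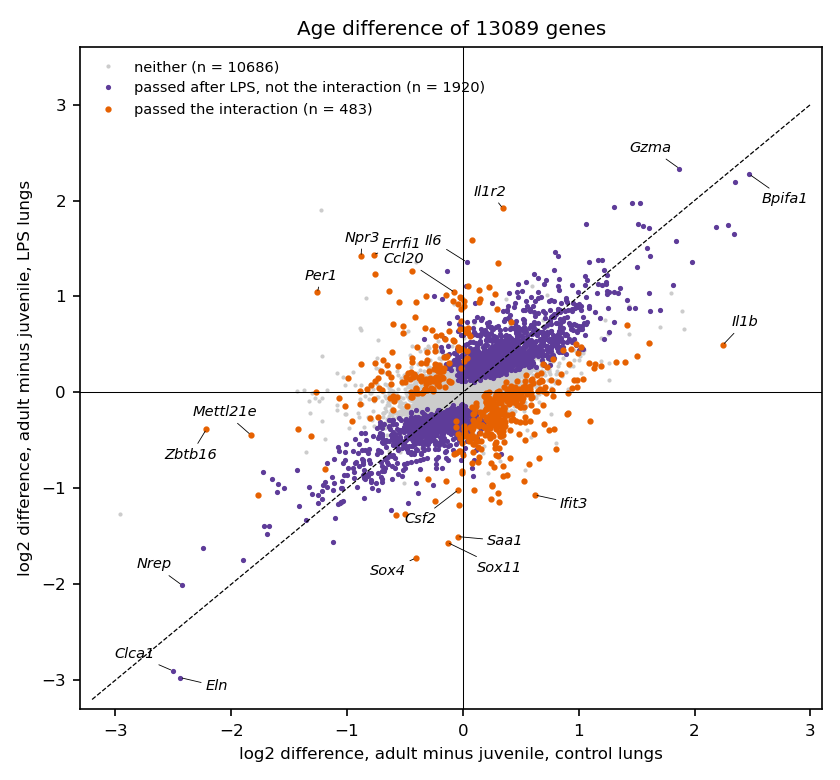
Each point is 1 of 13089 genes. The horizontal axis is the log2 difference, adult minus juvenile, in control lungs and the vertical axis that in LPS lungs; orange genes passed the interaction (483), purple genes passed after LPS but not the interaction (1920), grey genes passed neither, and equal differences lie on the dashed line. Eln, Clca1 and Nrep are low in adults on both axes, Gzma and Bpifa1 high on both, while Saa1, Sox11, Csf2 and Ccl20 differ after LPS with control differences close to 0.

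Genes that encode the matrix of the growing lung were lower in adult LPS lungs. Elastin (Eln), the core protein of elastic fibres, had intensities of 533, 413, 471 and 575 on adult LPS arrays, against 4327, 4553, 3623 and 3955 on juvenile LPS arrays. Every adult value was below every juvenile value, and the difference of -2.97 ± 0.18 (adjusted p = 1.3e-11) was the most negative of all genes tested. Of 13 elastic fibre genes tested, 8 were at lower levels in adults, 1 at a higher level, and 4 missed the threshold (median -0.48, against -0.0031 over all genes). Lower members included the crosslinking enzyme Lox (-1.03 ± 0.14, adjusted p = 1.3e-05), the latent TGF-beta binding protein Ltbp2 (-1.14 ± 0.16), the microfibril protein Mfap2 (-0.98 ± 0.14), and Mfap4, a fibre-associated glycoprotein, at 890, 1102, 593 and 1407 on adult LPS arrays against 5616, 3286, 1803 and 3400 on juvenile LPS arrays (-1.74 ± 0.25, adjusted p = 1.9e-05). Juvenile LPS replicate 3 was lowest for Mfap4 among juveniles and still above all adults. Fbln1 was the member that was higher (0.34 ± 0.11), with probe sets from 0.01 to 0.64, and its call ended without juvenile LPS replicates 2 or 3 or adult LPS replicates 1 or 4 (adjusted p up to 0.13) and without juvenile LPS replicate 1 (0.055).

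Collagens followed the same order in 13 of 16 genes tested, with 0 higher and 3 not passed (median -0.93), and the count was 13 without any single array. The fibrillar chain Col3a1 had 2941, 3330, 3274 and 3720 in adult LPS lungs, against 8018, 8866, 8041 and 7941 in juvenile LPS lungs, a difference of -1.30 ± 0.12 (adjusted p = 5.7e-08). The groups lay far apart, and values within a group were close. Col5a2 (-1.07 ± 0.10), the microfibrillar chains Col6a2 (-1.15 ± 0.11) and Col6a1 (-0.94 ± 0.10), and the basement membrane chains Col4a1 (-0.89 ± 0.12) and Col4a3 (-0.79 ± 0.11) were lower as well. Col12a1 (-0.00), Col14a1 (-0.03) and Col15a1 (-0.14) did not pass. Between the controls 13 collagens were lower too. The interaction passed for 0 of 16 collagens and 0 of 13 elastic fibre genes, against 3.69% of all genes. With so low a share, 0 in lists of this size does not show that the age difference was unchanged. Adamts12, a secreted metalloprotease, was at 16.4, 12, 15 and 12.6 in adult LPS lungs, below the median of the arrays, and at 107, 120, 83.8 and 77.1 in juvenile LPS lungs (-1.48 ± 0.11, adjusted p = 1.5e-09).

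Imprinted and growth genes of early life were lower in 8 of 11 cases, with 0 higher and 3 not passed (median -0.61). Peg3, a paternally expressed zinc finger gene, had 90.9, 75.3, 54.7 and 62.5 in adult LPS lungs, against 315, 390, 252 and 198 in juvenile LPS lungs (-1.62 ± 0.14, adjusted p = 1.4e-08). Nrep, a short neuronal and myofibroblast protein, was lower by more (-2.01 ± 0.25, adjusted p = 3.7e-06), and its probe set is of a type that can also bind similar transcripts. Mest (-1.07 ± 0.14) and the growth factor receptor adaptor Grb10 (-0.61 ± 0.13) were lower, and so was the growth factor Igf1 (-0.94 ± 0.23, adjusted p = 0.0049), whose call ended with the mean over its probe sets (adjusted p = 0.13). The sodium channel subunit Scn3b (-1.56 ± 0.17) and Kdelr3 (-1.39 ± 0.12), a retention receptor of the endoplasmic reticulum, were also among the 12 lowest genes.

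Red cell transcripts were lower in adult LPS lungs in 5 of 7 cases (median -1.0). Alas2, the first enzyme of haem synthesis in erythroid cells, had 855, 818, 1295 and 847 in adult LPS lungs, against 2910, 2590, 2511 and 1732 in juvenile LPS lungs (-1.32 ± 0.20, adjusted p = 4.2e-05). The lowest juvenile array, replicate 4, was above the highest adult array. Bpgm, which makes the haemoglobin ligand bisphosphoglycerate, differed by -1.18 ± 0.19, and the anion exchanger Slc4a1 by -1.4 ± 0.35, with juvenile LPS replicate 4 (133) among the adult values of 122, 52.7, 188 and 110. Between the controls 6 of the 7 were lower in adults, and 0 passed the interaction, against 3.69% of all genes.

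The developmental transcription factors Sox4 and Sox11 had another pattern in controls than the matrix genes. Sox4 had 695, 784, 859 and 619 in adult LPS lungs, against 2681, 2302, 2587 and 2461 in juvenile LPS lungs (-1.73 ± 0.21, adjusted p = 2.2e-06), and Sox11 had 134, 120, 150 and 171 in adult LPS lungs, against 517, 445, 425 and 564 in juvenile LPS lungs (-1.56 ± 0.20, adjusted p = 6.3e-06). Neither passed between the controls (Sox4 -0.41 ± 0.21, Sox11 -0.13 ± 0.20), and both passed the interaction, at -1.32 ± 0.30 (adjusted p = 0.0091) and -1.43 ± 0.29 (adjusted p = 0.0042). The probe sets of each gene disagreed in size, from -1.73 to -0.02 over 6 probe sets of Sox4 and from -1.56 to -0.26 over 6 of Sox11. Among endothelial markers 4 of 16 were lower and 1 was higher. The lower ones were the sialomucin Emcn (-1.10 ± 0.16), the endothelial transcription factors Sox17 (-0.97 ± 0.17) and Sox18 (-0.67 ± 0.14), and the VEGF receptor Kdr (-0.43 ± 0.12), whose call ended without juvenile LPS replicate 2 or adult LPS replicate 1 (adjusted p up to 0.067). The von Willebrand factor gene Vwf was higher (0.72 ± 0.18, adjusted p = 0.0057). Sox18 passed the interaction (-0.82, adjusted p = 0.017), and Sox17, whose probe set can also bind similar transcripts, did not (-0.71, adjusted p = 0.095).

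**Figure D2:**
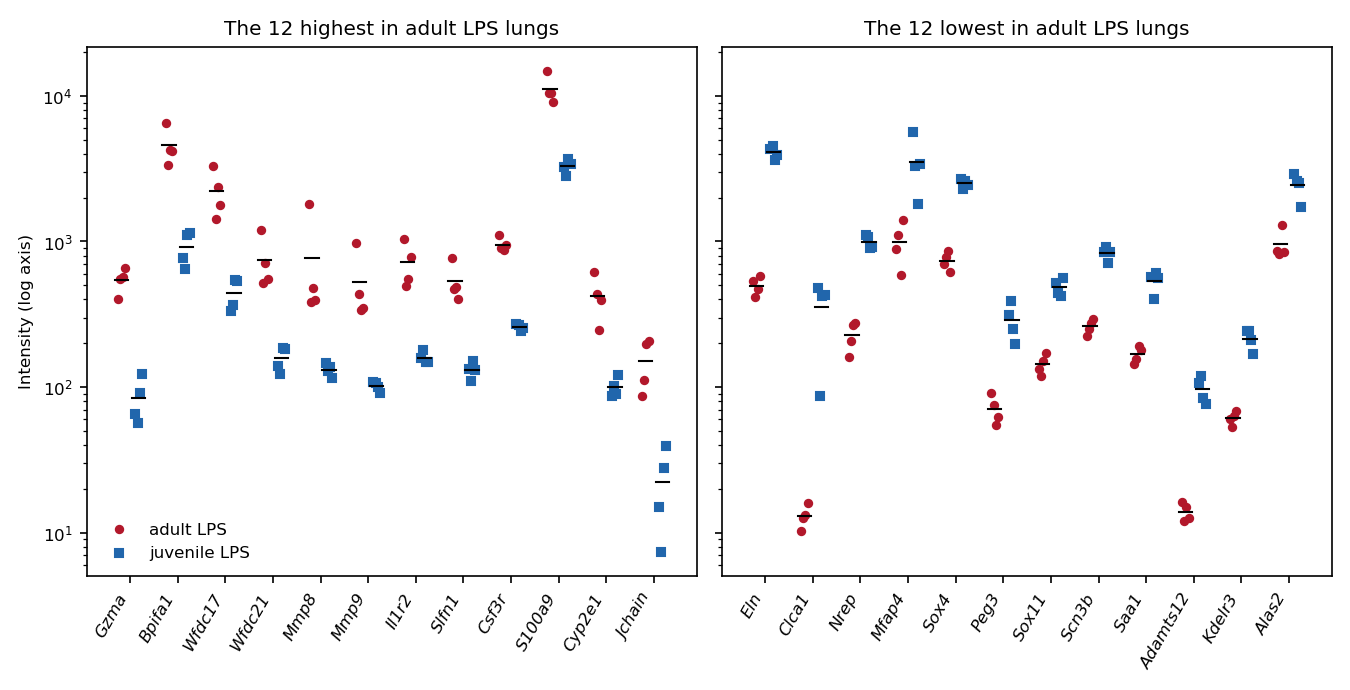
Intensity (log axis) of the 12 genes most above and the 12 most below in adult LPS lungs, among those past the threshold with no overlap of the groups; circles are the 4 adult LPS arrays, squares the 4 juvenile LPS arrays and bars the group means. Adult LPS replicate 1, the leftmost circle of each gene, is highest for Mmp8 (1798) and Mmp9 (975), and the juvenile Clca1 values run from 86.6 to 478.

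Alveolar epithelial markers passed at about the share of all genes (16.4%). Of 11 alveolar type 1 markers, 1 was higher in adults (the growth factor binding protein Igfbp2, 0.93 ± 0.17), 1 was lower (Emp2) and 9 did not pass. Of 12 surfactant and type 2 markers, 1 was higher (the transcription factor Cebpa, 0.75 ± 0.11), 1 was lower (Etv5, -0.27 ± 0.09) and 10 did not pass, among them Sftpc, with a difference of -0.00 and a 95% interval of -0.11 to 0.10. The call of Emp2 ended without juvenile LPS replicates 1 or 2 or adult LPS replicates 1 or 3 (adjusted p up to 0.082) and with the mean over its probe sets (0.16), and that of Etv5 without any of juvenile LPS replicates 1, 2 and 4 and adult LPS replicates 1, 2 and 4 (up to 0.14). Of 14 airway genes, 3 were higher in adults, 1 was lower and 10 did not pass (median 0.11), where 16.4% of all genes passed. Bpifa1 was among the 12 highest genes and Clca1 among the 12 lowest. Bpifa1, an antimicrobial protein secreted by airway epithelium, had 6487, 3373, 4245 and 4203 in adult LPS lungs, against 766, 652, 1102 and 1152 in juvenile LPS lungs (2.27 ± 0.48, adjusted p = 0.0013), and its control difference was 2.47. Clca1, a secreted regulator of chloride channels made by mucous cells, went the other way, with 10.3, 12.5, 13.2 and 16 in adult LPS lungs, all below the array median, against 478, 86.6, 423 and 428 in juvenile LPS lungs (-2.90 ± 0.75, adjusted p = 0.0078). The club cell cytochrome Cyp2f2 (0.63 ± 0.08) and Cyp2e1, another xenobiotic-metabolising cytochrome (1.73 ± 0.33, adjusted p = 4.6e-04), were higher in adults.

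Neutrophil transcripts were higher in adult LPS lungs, with the highest median of the 39 gene lists. Of 11 neutrophil markers tested, 8 were higher, 0 were lower and 3 did not pass (median 1.65). S100a9, a subunit of calprotectin, had 14801, 10414, 10446 and 9099 in adult LPS lungs, against 3240, 2821, 3699 and 3389 in juvenile LPS lungs (1.74 ± 0.54, adjusted p = 0.025). The granulocyte colony-stimulating factor receptor Csf3r had 1104, 900, 868 and 939 in adult LPS lungs, against 270, 269, 244 and 255 in juvenile LPS lungs (1.75 ± 0.34, adjusted p = 5.5e-04). The collagenase Mmp8 had 1798, 383, 482 and 397 in adult LPS lungs, against 146, 129, 136 and 115 in juvenile LPS lungs (1.97 ± 0.49, adjusted p = 0.0057). Adult and juvenile values were apart for each of these genes, and adult LPS replicate 1 was the highest array. The gelatinase Mmp9 (1.93 ± 0.31), the iron-binding granule protein Ltf (1.72 ± 0.25), the chemokine receptor Cxcr2 (1.11 ± 0.31), S100a8 (1.65 ± 0.52) and the formyl peptide receptor Fpr2 (0.70 ± 0.22) completed the 8. Ngp and Camp, granule genes of neutrophil precursors, did not pass (0.54 and -0.09), and Ngp was at 499.5 on adult LPS replicate 1 alone.

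The summed intensity of the 11 neutrophil markers was 22390 to 37185 in adult LPS lungs and 7829 to 9418 in juvenile LPS lungs. It was 3151 to 24526 in adult controls, high on replicates 3 and 4, and 1289 to 4339 in juvenile controls, so the control ranges overlapped. Between the controls 7 of the 11 were higher in adults, and 4 were with the compared groups alone. The interaction called 0 of 11, against 3.69% of all genes. Without adult LPS replicate 1 the count was 4 of 11 (median 1.47), and it was 5 without juvenile LPS replicate 1 or 2. The call of S100a9 ended without adult LPS replicate 1 or juvenile LPS replicate 1 or 2 (adjusted p up to 0.072), that of S100a8 without these or adult LPS replicate 3 (up to 0.079), that of Cxcr2 without adult LPS replicate 1 (0.076), and that of Fpr2 without adult LPS replicate 1 or any 1 juvenile LPS array (up to 0.13). Wfdc17 and Wfdc21, small whey acidic proteins, were higher by 2.19 ± 0.41 and 1.98 ± 0.37, and Slfn1, a Schlafen family gene, by 1.76 ± 0.27.

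Receptors of myeloid cells gave a steadier difference, with 10 of 12 higher, 0 lower and 2 not passed (median 0.89), a count of 10 without any single array. Trem1, which amplifies TLR signals in neutrophils and monocytes, had 663, 320, 423 and 511 in adult LPS lungs, against 141, 131, 134 and 126 in juvenile LPS lungs (1.59 ± 0.22, adjusted p = 1.4e-05). It did not differ in controls beyond the spread (0.08, adjusted p = 0.84) and passed the interaction (1.51, adjusted p = 0.0057). The IgG receptors Fcgr3 (0.95 ± 0.16) and Fcgr4 (1.13 ± 0.19) and the lectin Clec7a, a receptor for fungal glucans (0.76 ± 0.14), were higher in adults after LPS and in controls. Il1r2, the decoy receptor that binds interleukin-1 without signalling, had 1039, 492, 555 and 784 in adult LPS lungs, against 158, 180, 149 and 148 in juvenile LPS lungs (1.92 ± 0.29, adjusted p = 3.7e-05). Its interaction (1.58 ± 0.41, adjusted p = 0.029) did not pass with a pseudocount of 1 (adjusted p = 0.15), with array weights (0.076), or without juvenile LPS replicate 4, adult LPS replicates 1 or 4, or adult control replicates 1 or 2 (up to 0.077). Of 14 monocyte and macrophage markers, 3 were higher (Itgax, Mrc1 and Csf1r, from 0.38 to 0.61) and 11 did not pass. Of all genes 16.4% passed and 8.85% were higher. Csf1r lost its call without juvenile LPS replicate 3 or adult LPS replicate 1 (adjusted p up to 0.072).

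Lymphocyte and antigen presentation genes were higher in adults. Of 16 T, B and NK cell markers 7 were higher and 9 did not pass (median 0.27). Between the controls 11 of the 16 were higher in adults (median 0.67), and 0 of 16 passed the interaction, against 3.69% of all genes. The granzyme Gzma, a protease of cytotoxic granules, had 403, 551, 575 and 661 in adult LPS lungs, against 65.1, 57.1, 91.2 and 123 in juvenile LPS lungs (2.33 ± 0.49, adjusted p = 0.0012), the most positive difference that passed without overlap. The NK cell genes Nkg7 (1.12 ± 0.24), Klrd1 (0.74 ± 0.15) and Ncr1 (0.24 ± 0.05), the perforin gene Prf1 (0.42 ± 0.09), and Jchain, which joins IgA and IgM subunits (1.72 ± 0.44), were higher, whereas the T cell receptor chains Cd3d (0.05), Cd3e (-0.01) and Cd3g (0.03) did not pass. Ighm was higher (1.36 ± 0.44, adjusted p = 0.034), but its 6 probe sets ran from -0.00 to 1.36 their mean did not pass (adjusted p = 0.29), and its call ended without any of juvenile LPS replicates 1, 2 and 3 and adult LPS replicates 2, 3 and 4 (up to 0.087). Of 9 MHC class II genes 8 were higher and H2-Ob did not pass (median 0.49). H2-Eb1 had 1519, 1645, 1561 and 2027 in adult LPS lungs, against 1087, 873, 1096 and 1155 in juvenile LPS lungs (0.66 ± 0.10, adjusted p = 4.2e-05), and the invariant chain Cd74 differed by 0.41 ± 0.08. In controls the median of the list was 0.79, with 8 of 9 higher, and 0 of 9 passed the interaction, against 3.69% of all genes.

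**Figure D3:**
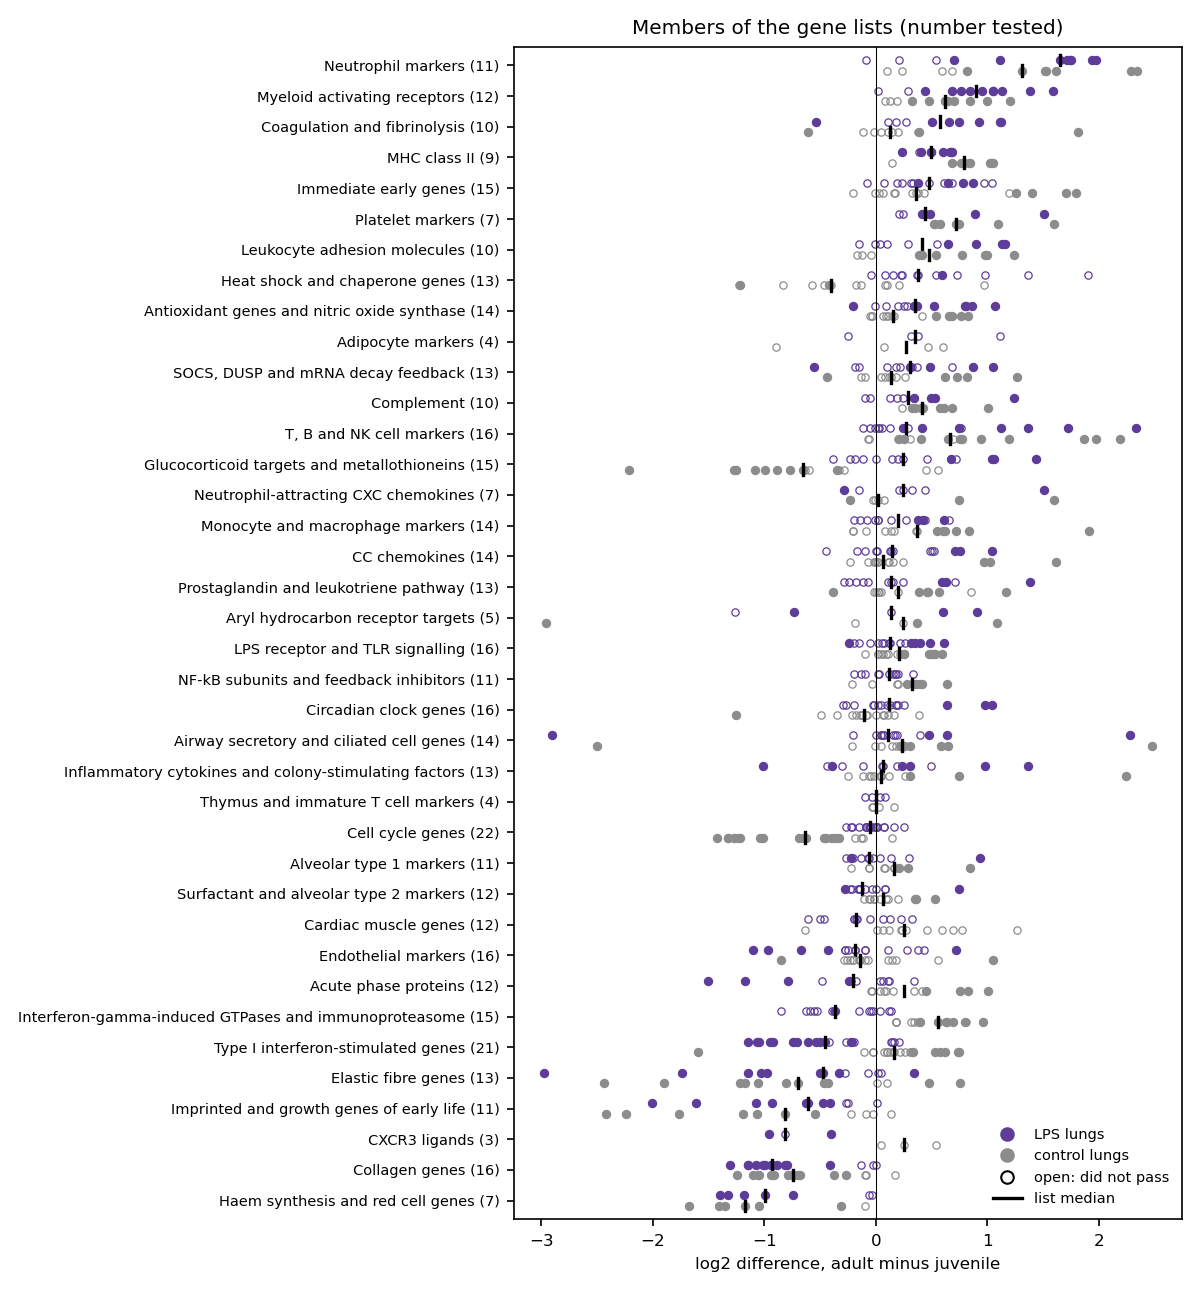
Log2 difference, adult minus juvenile, of each tested member of 38 gene lists, in LPS lungs (purple, upper row of each list) and control lungs (grey, lower row); filled points passed, open points did not, and black bars are list medians. Lists are ordered by their median in LPS lungs, from haem synthesis (-1.0) and collagens (-0.93) to myeloid receptors (0.89) and neutrophil markers (1.65).

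Several genes of LPS recognition and early inflammation did not pass between the ages. Cd14, the co-receptor that hands LPS to Tlr4, had 6288, 6668, 6043 and 6425 in adult LPS lungs and 6918, 5911, 6864 and 6692 in juvenile LPS lungs, a difference of -0.05 with a 95% interval of -0.28 to 0.18. Tnf differed by 0.05 (-0.20 to 0.30), Il1a by 0.06 (-0.27 to 0.40), the neutrophil chemokine Cxcl1 by -0.15 (-0.55 to 0.24), Tlr2 by 0.02 (-0.23 to 0.26) and the endothelial adhesion molecule Icam1 by 0.03 (-0.15 to 0.22). These intervals hold differences of less than 2-fold. Of the NF-kB subunits and feedback inhibitors 0 of 11 passed, where 16.4% of all genes passed. With that share, 0 in a list of this size does not show equal levels. Between the controls 5 of these 11 were higher in adults (median 0.33), as were 7 of 16 LPS receptor and TLR genes (median 0.20). Of all genes 15.1% were higher there. Of the 16 LPS receptor and TLR genes after LPS, 5 were higher, 1 was lower (Lbp) and 10 did not pass. The higher ones were Tlr4 itself (160, 110, 129 and 144 in adult LPS lungs, against 84.3, 68.9, 84.2 and 72.7 in juvenile LPS lungs; 0.61 ± 0.11, adjusted p = 1.8e-04), the adaptor Tirap (0.49 ± 0.09), the kinase Irak2 (0.40 ± 0.10), Tlr1 (0.35 ± 0.09) and Tlr7 (0.31 ± 0.09). Tlr1 lost its call without adult LPS replicate 1 (adjusted p = 0.056) and Tlr7 without juvenile LPS replicate 3 (0.067), and Tlr4's 3 probe sets ran from 0.22 to 0.61.

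Among 13 cytokines and colony-stimulating factors, 4 were higher in adults, 2 were lower and 7 did not pass. Il6, which drives the acute phase response, had 482, 381, 405 and 656 in adult LPS lungs, against 175, 66, 206 and 274 in juvenile LPS lungs (1.36 ± 0.37, adjusted p = 0.011), and all control values were between 8.4 and 13.5. The groups did not overlap, and without juvenile LPS replicate 2 the call ended (adjusted p = 0.065). Csf3, which releases and sustains neutrophils, had 116, 58.2, 51.1 and 159 in adult LPS lungs, against 33.8, 27.8, 29.1 and 26.5 in juvenile LPS lungs (0.98 ± 0.19, adjusted p = 5.3e-04). Csf2, the growth factor of alveolar macrophages, was the reverse, with 294, 404, 487 and 363 in adult LPS lungs, against 1080, 679, 836 and 678 in juvenile LPS lungs (-1.02 ± 0.15, adjusted p = 3.4e-05). Control values of both were close at the 2 ages, and both passed the interaction (Csf3 1.0, adjusted p = 0.033, and Csf2 -0.98, adjusted p = 0.0087). The interaction of Csf3 ended with array weights and without juvenile LPS replicates 2, 3 or 4, adult LPS replicates 1 or 4, adult control replicates 2 or 3, or juvenile control replicate 3 (adjusted p from 0.051 to 0.076). Il18 (0.31 ± 0.06) and Lif (0.23 ± 0.07) were higher and Csf1 was lower (-0.39 ± 0.12). The call of Lif ended without adult LPS replicate 1 or juvenile LPS replicate 1 or 2 (adjusted p up to 0.092), and that of Csf1 without juvenile LPS replicates 1 or 4 or adult LPS replicates 3 or 4 (up to 0.1).

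Of 14 CC chemokines 3 were higher and 11 did not pass, where 16.4% of all genes passed and 8.85% were higher. Ccl20, the ligand of Ccr6 on dendritic cells and lymphocytes, had 1548, 1026, 1311 and 1452 in adult LPS lungs, against 751, 539, 643 and 579 in juvenile LPS lungs (1.04 ± 0.11, adjusted p = 6.7e-07), with 16.7 to 25.7 in all controls and an interaction of 1.12 (adjusted p = 1.7e-04). Ccl6 (0.75 ± 0.14) and Ccl8 (0.71 ± 0.22) were higher, Ccl8 with calls ended without juvenile LPS replicates 1 or 2 or adult LPS replicates 3 or 4 (adjusted p up to 0.09). Of 7 neutrophil-attracting CXC chemokines the platelet chemokine Ppbp was higher (1.5 ± 0.27), the lung chemokine Cxcl15 was lower (-0.29 ± 0.07) and Cxcl2 (0.44, adjusted p = 0.1), Cxcl3 (0.32) and Cxcl5 (0.20) did not pass. Il1b did not pass after LPS, with 1900, 2414, 2603 and 2139 in adult LPS lungs and 1686, 1439, 1840 and 1414 in juvenile LPS lungs (0.50 ± 0.32, adjusted p = 0.33), although the groups did not overlap. In adult controls it had been higher, at 203, 180, 610 and 629, against 47, 42.2, 41.6 and 65.2 in juvenile controls (2.24, adjusted p = 1.1e-05), and the interaction passed (-1.75 ± 0.46, adjusted p = 0.028). That interaction ended without adult control replicates 3 or 4, adult LPS replicates 1 or 4, or juvenile LPS replicates 1 or 3 (adjusted p up to 0.071). Lrg1, a leucine-rich glycoprotein of neutrophils and endothelium, and Ier3, an early stress gene, gave the same order, higher in adult controls (1.5 and 1.4) and not passed after LPS (0.38 and 0.31).

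**Figure D4:**
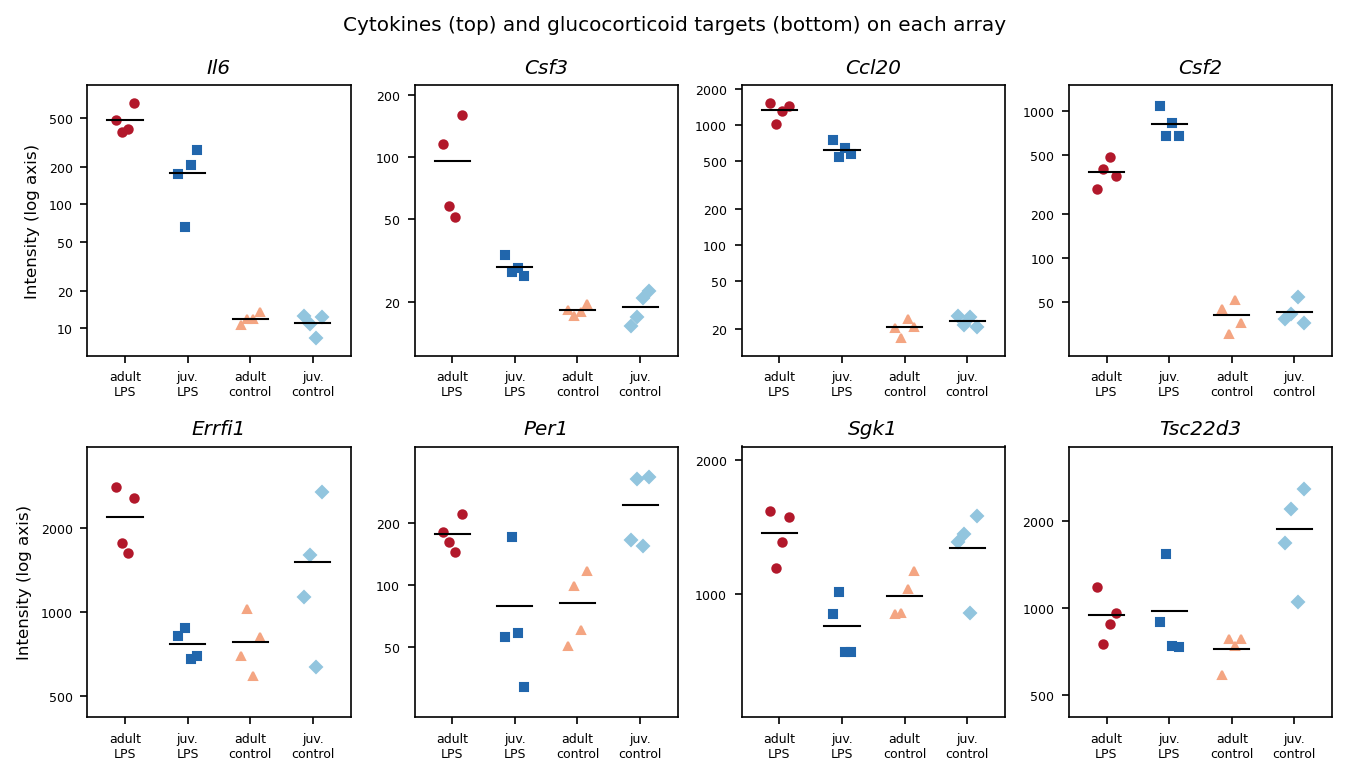
Intensity (log axis, a scale of its own in each panel) on the 4 arrays of each of adult LPS, juvenile LPS, adult control and juvenile control lungs, with bars at group means. Il6, Csf3 and Ccl20 are higher and Csf2 lower in adult LPS than in juvenile LPS lungs, and Errfi1, Per1 and Sgk1 are in opposite age order in LPS and control lungs by their means.

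Many genes that type I interferon induces were lower in adults after LPS, and most were not lower in adult controls. The promoters of 3 of them are shown because they hold the letters of the element through which interferon is known to act. The interferon-stimulated response element was searched as GAAA, any 2 bases and GAAA on both strands of windows of 300 bases, 250 before and 50 after the start site, in RefSeq (GRCm38.p6), 5′ to 3′ on the gene's strand. Capitals mark each match, which on the opposite strand reads TTTC, 2 bases and TTTC.
Ifit3, chr19:34583279-34583578, plus strand: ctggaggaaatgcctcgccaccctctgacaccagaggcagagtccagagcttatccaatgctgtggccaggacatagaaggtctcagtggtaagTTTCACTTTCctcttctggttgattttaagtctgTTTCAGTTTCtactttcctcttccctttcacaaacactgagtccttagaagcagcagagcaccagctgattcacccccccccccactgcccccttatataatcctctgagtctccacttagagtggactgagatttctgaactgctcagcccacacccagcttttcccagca
Ifit1, chr19:34640639-34640938, plus strand: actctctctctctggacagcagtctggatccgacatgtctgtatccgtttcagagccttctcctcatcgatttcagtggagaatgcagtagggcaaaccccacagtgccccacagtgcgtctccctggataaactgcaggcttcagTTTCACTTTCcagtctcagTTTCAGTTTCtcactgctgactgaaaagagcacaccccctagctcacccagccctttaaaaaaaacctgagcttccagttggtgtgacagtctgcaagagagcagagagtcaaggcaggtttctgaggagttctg
Cxcl10, chr5:92348840-92349139, minus strand: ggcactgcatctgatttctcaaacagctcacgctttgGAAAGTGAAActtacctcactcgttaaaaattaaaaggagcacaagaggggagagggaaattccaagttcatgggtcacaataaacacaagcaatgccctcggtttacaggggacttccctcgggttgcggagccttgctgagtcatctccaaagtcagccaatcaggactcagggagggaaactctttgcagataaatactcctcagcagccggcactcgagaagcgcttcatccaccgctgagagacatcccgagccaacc

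Of the interferon-stimulated genes lower in adult LPS lungs, 9 had a window and 5 of these held a match (55.6%), against 3 of 5 of the other tested members with a window (60%) and 1079 of 27025 genes in all (3.99%). No window of Ifit2, Cmpk2, Irf7 or Oasl2, which were also lower, held a match. The element was the 1 motif searched, and a match describes letters and not a bound site. Of 21 interferon-stimulated genes tested, 12 were lower in adult LPS lungs, 0 were higher and 9 did not pass (median -0.45), and leaving out 1 array gave 10 to 15 lower. The groups did not overlap for 9 of the 21, against 21.4% of all genes. The mean log2 value of the list was 8.164 on juvenile LPS replicate 2, within the adult LPS range of 7.821 to 8.173. On the other juvenile LPS arrays it was 8.542 to 8.735. Between the controls 6 were higher in adults and 1 was lower (median 0.16), with 3 higher without juvenile control replicate 2, and 9 of 21 passed the interaction, all more negative after LPS.

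Ifit2, an RNA-binding antiviral protein, had 315, 597, 557 and 567 in adult LPS lungs, against 1023, 705, 1221 and 1406 in juvenile LPS lungs (-1.05 ± 0.17, adjusted p = 1.1e-04). Its neighbour Ifit3, with 2 matches in its promoter, had 676, 1475, 1241 and 1129 in adult LPS lungs, against 2413, 1532, 2663 and 2936 in juvenile LPS lungs (-1.07 ± 0.20, adjusted p = 4.7e-04). Adult LPS replicate 1 was the lowest adult array and juvenile LPS replicate 2 the lowest juvenile array for both genes, and the groups did not overlap for either. The nucleotide kinase Cmpk2 had 214, 296, 365 and 277 in adult LPS lungs, against 709, 435, 724 and 869 in juvenile LPS lungs (-1.14 ± 0.20, adjusted p = 1.8e-04), and Usp18, a deconjugating protease that limits interferon signalling, 226, 311, 397 and 372 in adult LPS lungs, against 623, 446, 737 and 781 in juvenile LPS lungs (-0.92 ± 0.17, adjusted p = 3.0e-04). The interaction was -1.69 ± 0.29 for Ifit3, -1.46 ± 0.28 for Cmpk2, -1.45 ± 0.24 for Usp18 and -1.35 for Ifit2 (adjusted p from 6.7e-04 to 0.003). Adult controls were above juvenile controls for Ifit3 (0.62, adjusted p = 0.025) and Usp18 (0.53, adjusted p = 0.02), and these control calls ended without juvenile control replicates 1 or 2 or adult control replicate 1, for Ifit3 also without adult control replicate 3 (adjusted p up to 0.085).

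Ifit1, with 2 matches, was lower too (-0.71 ± 0.20, adjusted p = 0.014), with 1434 on juvenile LPS replicate 2 within the adult range of 1005 to 1615, and its call ended without juvenile LPS replicates 1 or 4 or adult LPS replicate 1 (adjusted p up to 0.076). The RNA sensor Ifih1 (-0.45 ± 0.11), the transcription factors Stat2 (-0.54 ± 0.12) and Irf7 (-0.50 ± 0.13), Oasl2 (-0.74 ± 0.19) and the antiviral GTPase Mx1 (-0.61 ± 0.14) were also lower. Rsad2, the antiviral enzyme viperin, was lower by -0.95 ± 0.22 (adjusted p = 0.0029), but unlike the others it was already lower in adult controls, at 454, 353, 671 and 569 against 1143, 1658, 1928 and 1651 in juvenile controls (-1.59, adjusted p = 6.3e-06). The oligoadenylate synthetases Oas1a (0.21), Oas2 (0.16) and Oas3 (0.14, adjusted p = 0.057) did not pass.

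Of the 3 ligands of Cxcr3, which interferon-gamma also induces, 2 were lower in adult LPS lungs. Cxcl10, which draws T and NK cells through Cxcr3, had 1488, 2471, 2358 and 2753 in adult LPS lungs, against 4609, 2830, 5109 and 5319 in juvenile LPS lungs (-0.96 ± 0.22, adjusted p = 0.0029). Juvenile LPS replicate 2 was the lowest juvenile array and adult LPS replicate 1 the lowest adult array, as for the Ifit genes. The mean log2 value of the 3 ligands on juvenile LPS replicate 2 (8.276) lay within the adult LPS range of 7.74 to 8.478. The interaction of Cxcl10 (-1.22, adjusted p = 0.026) ended without juvenile LPS replicates 1, 3 or 4, adult LPS replicate 1 or adult control replicate 3, and with a pseudocount of 1 (adjusted p from 0.051 to 0.068). Cxcl11 was lower (-0.40 ± 0.11, with a call that ended without adult LPS replicate 1, adjusted p = 0.052) and Cxcl9 did not pass (-0.81, adjusted p = 0.21). Of 15 interferon-gamma-induced GTPase and immunoproteasome genes 1 was lower after LPS (Psmb10, -0.37 ± 0.13, adjusted p = 0.048) and 14 did not pass (median -0.37), a share no higher than the 7.51% of all genes that were lower. With the compared groups alone 7 of the 15 were lower. In adult controls 7 were higher (median 0.55), and 4 were without juvenile control replicate 1 or adult control replicate 3. Psmb10 lost its call without any of juvenile LPS replicates 1, 3 and 4 and adult LPS replicates 1, 3 and 4 (adjusted p up to 0.16). Gbp2 was among the 8 most negative interactions (-1.4 ± 0.39, adjusted p = 0.043) did not pass after LPS (-0.59), and lost its interaction without any of 14 of the 16 arrays that enter it (adjusted p up to 0.086).

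**Figure D5:**
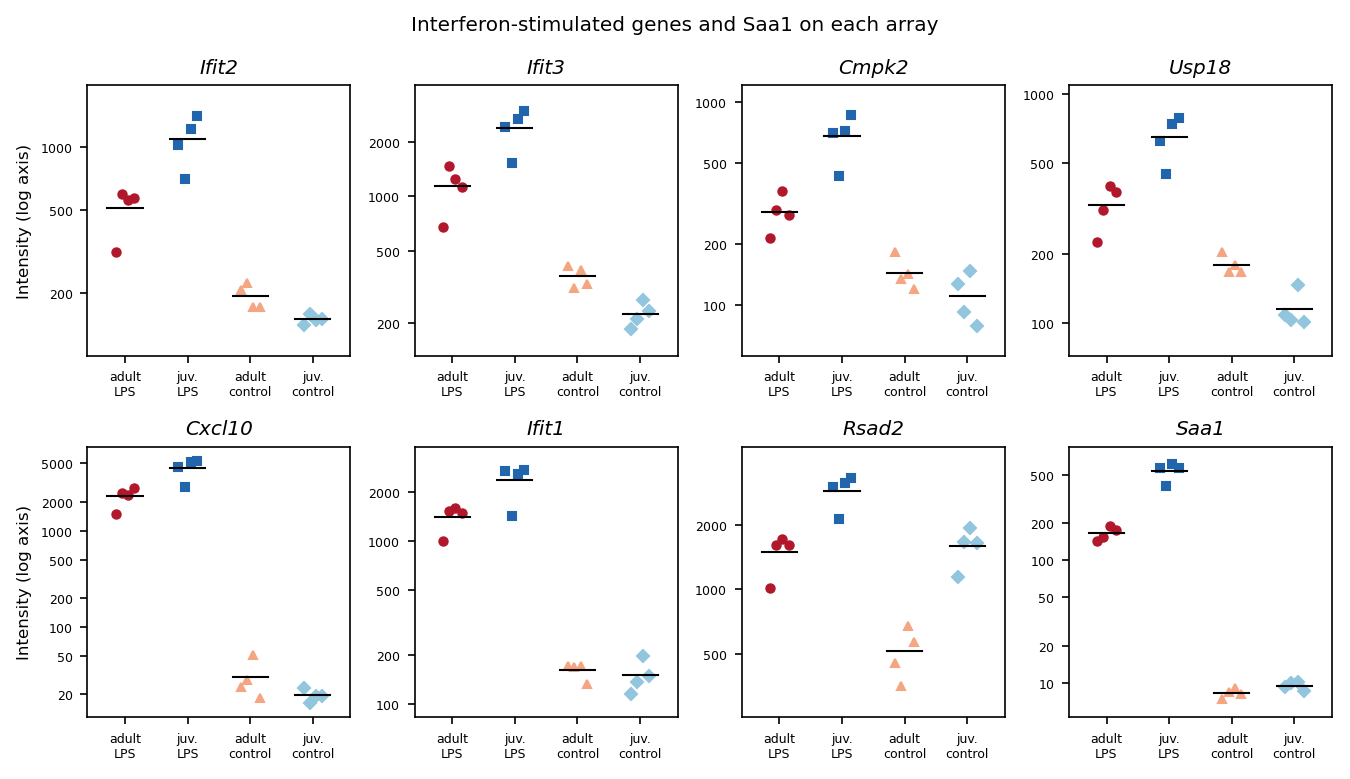
Intensity (log axis, a scale of its own in each panel) of 7 interferon-stimulated genes and the acute phase gene Saa1 on the 4 arrays of each of 4 groups, with bars at group means. Juvenile LPS means are above adult LPS means in all 8 panels, adult control means are above juvenile control means for Ifit3 and Usp18, and Rsad2 is lower in adult than in juvenile controls.

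Acute phase genes were lower in adults in 4 of 12 cases, with 0 higher and 8 not passed. Serum amyloid Saa1 had 145, 155, 192 and 178 in adult LPS lungs, against 573, 403, 607 and 565 in juvenile LPS lungs (-1.5 ± 0.17, adjusted p = 7.9e-07), and Saa2 had 49.3, 45.5, 61.2 and 52.3 in adult LPS lungs, against 141, 122, 175 and 200 in juvenile LPS lungs (-1.17 ± 0.10, adjusted p = 8.7e-09). Both were between 7.31 and 21.5 in all controls, below the array medians, and both passed the interaction (-1.46 ± 0.24 and -1.13). Their probe sets may bind related transcripts, and Saa1 and Saa2 are near-identical copies, so their separate levels are uncertain. Orm1, an acute phase glycoprotein, was lower (-0.79 ± 0.20), and Lbp, which carries LPS, was lower by -0.24 ± 0.08 with a call that the mean over probe sets (adjusted p = 0.49) and the loss of any 1 array except juvenile LPS replicate 3 ended (adjusted p up to 0.15). Saa3 (-0.49, -1.10 to 0.13), Lcn2 (-0.18) and Hp (0.06) did not pass. Serpina3n, a protease inhibitor, did not pass after LPS (-0.30 ± 0.17) and had been higher in adult controls (1.10), with an interaction of -1.4 ± 0.24.

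The age difference of many glucocorticoid-induced genes was more positive after LPS than in controls. Of 15 glucocorticoid targets and metallothioneins 4 were higher in adult LPS lungs, 0 were lower and 11 did not pass (median 0.24), while in controls 0 were higher and 9 were lower in adults (median -0.65), and 9 of 15 passed the interaction, all more positive after LPS. With the compared groups alone 7 of 15 were higher after LPS. Errfi1, a feedback inhibitor of the EGF receptor, had 2780, 1757, 1624 and 2542 in adult LPS lungs, against 820, 875, 679 and 694 in juvenile LPS lungs (1.44 ± 0.27, adjusted p = 4.5e-04), with an interaction of 2.21 ± 0.38 (adjusted p = 0.0012). The clock gene Per1 had 180, 163, 145 and 221 in adult LPS lungs, against 55.8, 171, 58.3 and 32 in juvenile LPS lungs (1.04 ± 0.30, adjusted p = 0.016), so that juvenile LPS replicate 2 lay among the adults. Its interaction, 2.3 ± 0.42 (adjusted p = 0.0022), was the most positive among genes that passed it. The kinase Sgk1 was higher (0.67 ± 0.12), as was Pdk4, which inhibits pyruvate dehydrogenase (1.05 ± 0.29, adjusted p = 0.013).

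Tsc22d3, a direct glucocorticoid receptor target, had a difference of 0.00 after LPS (-0.45 to 0.45) and of -1.27 in controls (adjusted p = 1.1e-04). The zinc finger gene Zbtb16 did not pass after LPS (-0.39 ± 0.28) and differed by -2.21 in controls. The metallothionein Mt2 did not pass (0.24, -0.27 to 0.76). The mean log2 value of the list was 9.695 on juvenile control replicate 4, against 8.45 to 9.05 on the other juvenile controls. Without that array 9 members again passed the interaction, and 7 were lower and 2 higher in adult controls. The LPS calls of Per1 ended without juvenile LPS replicate 4 or adult LPS replicate 4 (adjusted p = 0.074 and 0.054), and that of Pdk4 without juvenile LPS replicate 1 (0.059). Npr3, a clearance receptor of natriuretic peptides outside this list, had 993, 908, 817 and 809 in adult LPS lungs, against 299, 372, 320 and 255 in juvenile LPS lungs (1.42 ± 0.21, adjusted p = 3.6e-05), and the reverse order in controls (-0.88, adjusted p = 0.0032). The actin-binding protein gene Fam107a (1.23 ± 0.29) and Tmem252 (1.27 ± 0.21), a membrane protein gene, were higher in adult LPS lungs with interactions of 1.99 ± 0.42 and 1.71 ± 0.30.

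Feedback, clotting and redox genes were mostly higher in adults where they passed. Of 10 coagulation and fibrinolysis genes 6 were higher and 1 was lower. Plat, tissue plasminogen activator, had 682, 481, 454 and 579 in adult LPS lungs, against 237, 219, 273 and 211 in juvenile LPS lungs (1.11 ± 0.12, adjusted p = 7.5e-07), with no control difference beyond the spread (0.05) and an interaction of 1.06 (adjusted p = 7.3e-04). The urokinase receptor Plaur (0.75 ± 0.14) and tissue factor F3 (0.65 ± 0.15), which starts clotting, were higher, and Tfpi, its inhibitor, was lower (-0.53 ± 0.11). Of 14 antioxidant genes 8 were higher and 1 was lower: Gclc, the rate-limiting enzyme of glutathione synthesis, had 5156, 5164, 4587 and 5413 in adult LPS lungs, against 3080, 3251, 2635 and 2628 in juvenile LPS lungs (0.81 ± 0.15, adjusted p = 4.9e-04). Gpx2 (1.06 ± 0.14), Gsr (0.80 ± 0.15) and Srxn1 (0.86 ± 0.17) were higher, Sod2 was lower (-0.20 ± 0.06, a call that ended without juvenile LPS replicates 1 or 2 or adult LPS replicate 1, with adjusted p up to 0.12) and Nos2 did not pass (-0.01). Among the other higher genes, Hmox1 lost its call on leaving out any 1 of the 8 arrays (adjusted p up to 0.12). Slc7a11 lost it without juvenile LPS replicate 3 or adult LPS replicate 1 (up to 0.0825), and Txnrd1 with the mean over probe sets (0.19). With 1 array left out, 6 to 8 of the antioxidant genes were higher. The signalling inhibitor Socs3 had 2580, 2571, 2335 and 2400 in adult LPS lungs, against 1397, 1134, 1108 and 1095 in juvenile LPS lungs (1.05 ± 0.29, adjusted p = 0.013), on a probe set that can also bind similar transcripts. Of 13 SOCS, DUSP and mRNA decay genes 4 were higher and 1, the phosphatase Dusp4, was lower (-0.56 ± 0.13), and 1 to 4 were higher when 1 array was left out (under 3 without juvenile LPS replicates 2, 3 or 4 or adult LPS replicates 1, 2 or 4). The early-response genes Myc (0.87 ± 0.12), Fosl2 (0.78 ± 0.19), Egr2 (0.65 ± 0.15) and Fosl1 (0.38 ± 0.07) were higher, and the other 11 of 15 did not pass, while 10 of 15 did with the compared groups alone. Alox5ap (1.38 ± 0.23) and Alox5 (0.62 ± 0.08), which make leukotrienes, were higher among 13 lipid mediator genes. Of these 13, 3 passed, all higher, where 16.4% of all genes passed and 8.85% were higher. P-selectin, Selp (1.16 ± 0.16), and its ligand Selplg (1.13 ± 0.22) were among the 4 of 10 adhesion genes that were higher. Between the controls 7 of these 10 were higher in adults, where 15.1% of all genes were. Platelet markers were higher in 5 of 7 cases, and in 1 of 7 without adult LPS replicate 1, and the count also fell by over 1.5 times without juvenile LPS replicates 1, 3 or 4 or adult LPS replicate 4. They had a summed intensity of 1950 to 3335 in adult LPS and 1089 to 1561 in juvenile LPS lungs. Between the controls 7 of the 7 platelet markers were higher in adults (median 0.72, against 0.44 after LPS). Their summed intensity was 1954.5 to 4816 in adult controls and 1060 to 1370 in juvenile controls. Of 13 chaperone genes 1 passed (Hsp90aa1, 0.59 ± 0.20, a call that ended without any of 6 of the 8 arrays, with adjusted p up to 0.1) and 7 did with the compared groups alone. Hspa1b, an inducible heat shock protein, did not pass, with 2098, 1151, 830 and 650 in adult LPS lungs and 309, 203, 332 and 232 in juvenile LPS lungs (1.90 ± 0.79, adjusted p = 0.11).

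Of the clock genes 3 of 16 were higher in adults (Per1, Nfil3 at 0.98 ± 0.25 and Bhlhe40 at 0.64 ± 0.14). Of all genes 16.4% passed in either direction and 8.85% were higher. Of 10 complement genes 4 were higher, and 2 were without juvenile LPS replicate 2 or adult LPS replicate 1. The anaphylatoxin receptor C5ar1 had the highest difference of the 4 (1.24 ± 0.17). Between the controls 8 of the 10 complement genes were higher in adults, where 15.1% of all genes were. A list of 5 genes held the aryl hydrocarbon receptor gene Ahr and targets of the receptor, of which 2 targets were higher and none was lower. Ahr itself was lower, with 548, 525, 545 and 549 in adult LPS lungs, against 913, 1045, 860 and 884 in juvenile LPS lungs (-0.74 ± 0.12, adjusted p = 1.2e-04). Ahr did not pass in controls (0.25) and passed the interaction (-0.98, adjusted p = 0.0014). Of 4 thymus and 4 adipocyte genes tested 0 passed.

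Cell cycle genes did not separate the ages after LPS. Of 22 tested 0 passed in either direction (median -0.05), whereas 17 were lower in adult controls (median -0.63), 12 to 20 with 1 array left out and 6 with the compared groups alone. Mki67, a marker of cycling cells, differed by -0.22 after LPS (-0.83 to 0.40). The interaction passed for Pcna alone (0.58, adjusted p = 0.039), which it did not without any of 12 of the 16 arrays (up to 0.091), and for 13 of the 22 genes without juvenile control replicate 4, which had the lowest mean of these genes among juvenile controls. Mettl21e, a muscle methyltransferase, and Tcim, a small regulator of Wnt signalling and NF-kB, behaved likewise: both were lower in adult controls (-1.83 and -1.42) and did not pass after LPS (-0.44 and -0.38), with interactions of 1.39 ± 0.26 and 1.04 ± 0.20.

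A set of 53 genes passed at both comparisons with opposite signs, 38 of them lower in adult LPS lungs and higher in adult controls. Lifr, the receptor of leukaemia inhibitory factor, had 379, 394, 396 and 328 in adult LPS lungs, against 629, 755, 547 and 562 in juvenile LPS lungs (-0.68 ± 0.10), and differed by 0.40 in controls (adjusted p = 0.0024). Its 3 probe sets ran from -0.68 to 0.04, and with their mean the control call ended (adjusted p = 0.067), as did that of Ptch1 (0.25). The hedgehog receptor Ptch1 (-0.58 ± 0.09 after LPS, 0.31 in controls), the G protein regulator Rgs3 (-0.52 ± 0.06 and 0.36), Arhgap20 (-0.66 ± 0.08 and 0.29) and Prr5l, a partner of the mTORC2 kinase complex (-0.44 ± 0.09 and 0.61), were of this kind.

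Animals that were ventilated after LPS gave the age difference on other arrays, where 1602 genes passed (12.2%), 955 higher in adults (7.3%) and 647 lower (4.94%), and groups did not overlap for 24.2% of all genes. Of the 2141 genes, 828 passed there with the same sign and 9 with the opposite sign. Eln (-3.11 ± 0.19), Saa1 (-0.99 ± 0.18), Cxcl10 (-0.92 ± 0.24), Ifit2 (-0.75 ± 0.19), Sox4 (-1.09 ± 0.23) and Ccl20 (0.63 ± 0.12) kept their direction and passed. Collagens were lower in 13 of 16 and interferon-stimulated genes in 6 of 21 cases. Of the 12 acute phase genes, Saa1 among them, 4 were higher and 2 lower after LPS+MV (median 0.19), against 0 higher and 4 lower after LPS alone. Csf2 was higher in adult LPS+MV lungs (0.51 ± 0.17, adjusted p = 0.041), and Il6 (0.07), Errfi1 (0.15), Npr3 (0.33) and Per1 (-0.48) did not pass. Of the neutrophil markers 2 of 11 were higher and 2 lower. Whether the age differences with and without ventilation differ was not tested. Adult LPS+MV replicates 1, 2 and 3 had Xist between 425 and 634 and juvenile LPS+MV replicates 2 and 3 had 724 and 771, unlike the LPS lungs, and the part of sex in this contrast was not tested.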

How the data were processed

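The deposited files hold 1 intensity per probe set on a linear scale. The submitters' processing notes name MAS5 and no other tool, and the normalization behind these intensities is not given in the sources used here. Of 45037 probe sets, 34945 had 1 gene symbol in the platform annotation, 932 had several and 9160 had none. A probe set was kept (24825 were) if it exceeded the median of the array on 3 or more arrays, and the one with the highest mean stood for its gene, which left 13089 genes. Values of log2(intensity + 32) of all 30 arrays were fitted with limma 3.58.1 in R 4.3.3 as 8 group means, with an intensity trend, and p-values were adjusted over all genes by Benjamini-Hochberg. The 4 contrasts were the age difference after LPS, in controls and after LPS+MV, and the interaction of age and LPS. Each sample is 1 animal, and p-values rest on the spread between animals pooled within all 8 groups, controls and ventilated animals included. They do not measure the spread of the LPS animals alone, and each LPS mean rests on 4 arrays.

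The genes described are the 12 highest and 12 lowest after LPS without overlap, the 8 most extreme interactions in each direction, 6 that passed in controls and not after LPS, 6 that passed with opposite signs, and up to 4 members of each of 39 gene lists (461 of 528 members were tested). Other list members were named after their values were seen, and the lists were chosen with earlier results of these data known. The fit was tested on simulated data with 200 of 13089 genes changed, for the age difference after LPS, where it recovered 76% of those changed by 0.5 and 99% of those changed by 1 on the log2 scale, with 8 false calls among 183. The simulated noise was normal and independent, with the same spread for a gene in all groups. It therefore does not show how the fit performs where arrays are unequal or deviate together. Alternatives were other pseudocounts, quantile normalization, no filter, the mean over probe sets, no trend, array weights, the compared groups alone, a replicate block and leaving out each array.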

Additional observations from a re-analysis of the deposited data

Results flagged for a closer look

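Over 46 named genes in the 2 LPS groups (92 groups of 4 arrays), 4 had an array far from the other 3 by Dixon's criterion, which chance gives in about 1 of 20 groups. They were Mmp8 on adult LPS replicate 1 (1798), Clca1 on juvenile LPS replicate 2 (86.6), Alas2 on adult LPS replicate 3 (1295) and Arhgap20 on adult LPS replicate 1 (27.5, against 22.9 to 23.3).

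For 26 named genes the age difference after LPS itself differed from that in controls by the interaction in limma, which 3.69% of all genes passed. Most of them were named by rules that used the interaction, so their number follows from that choice and is not a result. It was more positive after LPS for Per1 (2.3), Npr3 (2.3), Errfi1 (2.21), Fam107a (1.99), Zbtb16 (1.83), Tmem252 (1.71), Pdk4 (1.69), Il1r2 (1.58), Mettl21e (1.39) and Tcim (1.04). It was more negative for Il1b (-1.75), Ifit3 (-1.69), Cmpk2 (-1.46), Saa1 (-1.46), Usp18 (-1.45), Sox11 (-1.43), Serpina3n (-1.4), Gbp2 (-1.4), Sox4 (-1.32), Lrg1 (-1.12), Ier3 (-1.09), Lifr (-1.09), Prr5l (-1.05), Arhgap20 (-0.94), Ptch1 (-0.89) and Rgs3 (-0.88).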

How the results depend on the processing

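After LPS, 2141 genes passed, and 2030 to 2451 did under the other settings and 1704 to 1949 with 1 array left out. The replicate block gave 2276 genes after LPS, 3463 in controls, 564 for the interaction and 1703 after LPS+MV. Same-numbered arrays deviated together with correlations of -0.014 to 0.249 after LPS and -0.047 to 0.257 in controls, so the numbers were not taken to pair the animals. Array weights gave 943 genes for the interaction and 3891 after LPS+MV. With 1 array left out, the interaction passed for 332 to 825 genes (825 without juvenile control replicate 4) and the LPS+MV contrast for 1010 to 1574 (1010 without juvenile LPS+MV replicate 1, 1043 without replicate 2). The cause was not tested. Egr3 alone changed sign among the genes described, from a value that did not pass (-0.08) to 0.51 with the mean over its probe sets (adjusted p = 0.00075 in limma). The change of dim genes near the array median is understated by a log2 difference with a pseudocount, and any background left in their values was not measured.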
